A study of Bos taurus with 18 samples.

Results

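Single-nucleotide polymorphism (SNP) sites in the 5′ untranslated region (UTR) of cattle genes were described in pituitary and hypothalamus RNA from 9 Angus cows. The sites were the 7745 of 992284 listed in the deposited SNP table whose effect annotation is START_GAINED (358 sites) or UTR_5_PRIME (7387 sites), chosen by annotation alone. Poly(A) RNA was sequenced from pituitary and hypothalamus of healthy cows that were not in heat, 3 of them newly weaned at 6 months, 3 sexually mature at 18 months and 3 that had borne a first calf by 30 months, which gave 18 libraries in 6 groups of 3. The SNPs were called in these RNA libraries, so a site could be seen only in a gene that was transcribed and read there. No treatment or engineered allele is named in the labels, and the replicates are different cows.

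The 5′ UTR is the part of an mRNA between its cap and the start codon of its protein. The ribosome enters at the cap and scans this stretch, and its length, folding and any ATG triplet upstream of the main start codon are known to affect how much protein is made. Effect annotators commonly write START_GAINED for a base change in a 5′ UTR that makes a new start codon, and UTR_5_PRIME for the other changes there. The annotator and its definition are not given in the sources used here. The effect is a property of the listed bases, and no translation was measured. Flanking bases are not shown because no genome of the table's build was used here.

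The gene models carry numbers without names in the files, so hormone genes and other markers of the tissues were not looked up. At genotypes of depth 20 or more, the closest match of each library was the other tissue of a cow of the same age, with 99.3% to 99.7% of genotypes identical over 29833 to 70301 sites. The next best match shared 54.8% to 66.7%, and the 18 libraries were therefore joined into 9 animals. Reads at all SNP sites together numbered 3334980 to 7536307 per library. The lowest total was that of pituitary 18 months replicate 3, which stood apart in the position of its reads. It had 1.26% of its SNP-site reads at the 5′ sites and 39.2% at sites annotated as 3′ UTR, against 1.97% to 2.67% and 20.98% to 30.4% in the other 17 libraries. It also had the fewest heterozygous START_GAINED calls of depth 20 or more, 3 against 11 to 27 elsewhere.

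START_GAINED sites were rare and spread over many genes. They made up 4.62% of the 5′ sites and lay in 332 gene models, of which 309 held a single site. No gene model held more than 3, and gene5453, gene16533 and gene19954 each held that number. UTR_5_PRIME sites lay in 4077 gene models with up to 23 per gene. Of the 332 gene models with a START_GAINED site, 185 (55.7%) also held a UTR_5_PRIME site. On the chromosomes, START_GAINED sites were most numerous on chromosomes 25 (23 sites) and 11 (21 sites), and 1 site lay on chromosome 9. UTR_5_PRIME sites were most numerous on chromosomes 18 (500 sites) and 19 (380 sites), and chromosome 9 held 150. A similar share of each class had no other listed SNP within 50 bases, 63.7% of START_GAINED and 65.1% of UTR_5_PRIME sites.

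START_GAINED sites were called in fewer libraries. A genotype was present in all 18 libraries at 54 START_GAINED sites (15.1%) and at 1985 UTR_5_PRIME sites (26.9%). Calls per library ran from 96 to 266 with a median of 240.5 at START_GAINED sites, and from 2616 to 5977 with a median of 5709.5 at UTR_5_PRIME sites. Both minima were in pituitary 18 months replicate 3.

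The classes differed in the bases exchanged. As listed in the table, the change was C to T or G to A at 65.6% of START_GAINED sites (95% exact binomial interval 60.5 to 70.6) and at 33.8% of UTR_5_PRIME sites (32.7 to 34.9). The opposite transition, A to G or T to C, made up 12.3% of START_GAINED sites (9.07 to 16.1) and 28.7% of UTR_5_PRIME sites (27.7 to 29.8). Exchanges between C and G made up 2.23% of START_GAINED sites (0.970 to 4.36) and 13.8% of UTR_5_PRIME sites (13.1 to 14.7). The reference base was therefore C or G at 78.2% of START_GAINED sites and 58.5% of UTR_5_PRIME sites. The alternative base was C or G at 18.4% of START_GAINED sites and 51.6% of UTR_5_PRIME sites. These intervals cover counting error only.

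The same contrast was present in every animal when only the sites at which it carried the alternative allele were counted. The reference base was C or G at 72.7% ± 2.39 of START_GAINED sites and 55.8% ± 0.827 of UTR_5_PRIME sites (SD, n = 9 animals). The START_GAINED share ran from 69.8% to 76.5% with a median of 72.9%, and the UTR_5_PRIME share from 54.7% to 57.3% with a median of 55.7%, so the classes did not overlap. The alternative base was C or G at 24.9% ± 2.44 of START_GAINED sites and 56.1% ± 1.10 of UTR_5_PRIME sites. Transitions made up 75.6% ± 3.75 of START_GAINED sites and 61.5% ± 0.727 of UTR_5_PRIME sites. The 3 differences (16.9, -31.2 and 14.1 percentage points) had the same sign in 9 of 9 animals, with an adjusted p of 0.00684 each in a two-sided exact sign-flip permutation test. The unadjusted p of 0.00391 is the smallest that 9 animals allow. Because the animals share most of their sites, such a p speaks for the animals and not for other sites. If the annotation follows the usual meaning of START_GAINED, the class itself limits the bases exchanged, so these p-values are given as a description and not as evidence of a difference beyond the class definition.

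The coding strand of a gene could be read from the codon changes listed for 50389 coding SNPs, none of which went against its listed bases, and it was known for 300 START_GAINED sites (83.8%) and 6080 UTR_5_PRIME sites (82.3%). On the coding strand the new base at START_GAINED sites was A at 128 sites (42.7%), T at 116 (38.7%), G at 56 (18.7%) and C at 0. With a limit of 3 counts, 0 of 300 allows a share of up to 1%. At UTR_5_PRIME sites the 4 new bases were near evenly represented, with A at 24.1%, T at 24.5%, G at 25.7% and C at 25.7%. Each base gained at these 300 sites is a base of the triplet ATG. Read as a new ATG, a gained A stands at position 1 of the triplet, a gained T at position 2 and a gained G at position 3. The replaced triplet would then have been GTG at 102 sites (34%), ACG at 97 (32.3%), ATA at 35 (11.7%) and CTG at 19 (6.33%); the other triplets were at 7 to 13 sites each. The neighbouring bases themselves were not read.

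Alternative alleles were about as frequent in both classes. With a genotype of depth 10 or more in all 9 animals, 60 START_GAINED sites (16.8% of the class) and 2110 UTR_5_PRIME sites (28.6%) could be compared. The mean alternative allele frequency per animal was 0.344 ± 0.0276 at START_GAINED sites and 0.343 ± 0.0207 at UTR_5_PRIME sites (SD, n = 9). It ran from 0.308 to 0.392 at START_GAINED sites and from 0.325 to 0.392 at UTR_5_PRIME sites, and the ranges overlapped. The difference of 0.000891 was smaller than its spread between animals (SD 0.0310), was positive in 4 of 9 animals and had an adjusted p of 0.949 in the exact sign-flip permutation test. It ran from -0.0500 to 0.0478 in single animals. This value moved with the sites admitted. At a depth of 20 or more, with 35 START_GAINED sites, the difference was 0.0278 (adjusted p = 0.0438, exact sign-flip), while from pituitary libraries alone, with 12 START_GAINED sites, it was -0.0688 (adjusted p = 0.0547, exact sign-flip). Without hypothalamus 18 months replicate 3, which left 14 START_GAINED sites, it was -0.0962 (adjusted p = 0.0109, exact sign-flip), and without hypothalamus 30 months replicate 2 it was 0.0268 (adjusted p = 0.0328, exact sign-flip).

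Over sites, rare alleles were the most numerous in both classes. The median frequency was 0.222 in each. A single alternative allele among the 18 of the 9 animals was found at 17 START_GAINED sites (28.3%, 95% exact binomial interval 17.5 to 41.4) and at 479 UTR_5_PRIME sites (22.7%, 20.9 to 24.5). The alternative allele was carried by 1 animal only at 30.0% of START_GAINED sites (18.8 to 43.2) and 22.8% of UTR_5_PRIME sites (21.1 to 24.7). It was homozygous in all 9 animals at 4 START_GAINED sites (6.67%) and 98 UTR_5_PRIME sites (4.64%). The START_GAINED intervals include the UTR_5_PRIME shares in each case, so at 60 sites no difference in these shares was detectable.

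**Figure D1:**
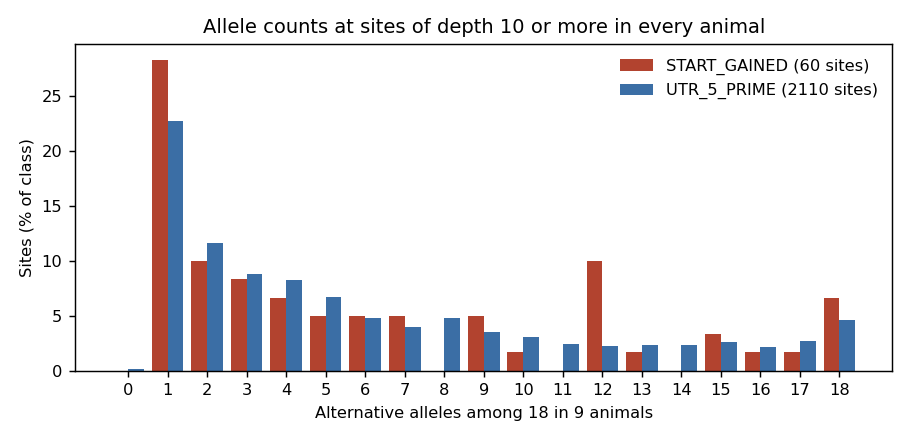
Share of sites (percent of the class, y axis) by the number of alternative alleles among 18 in 9 animals (x axis), for 60 START_GAINED sites (red) and 2110 UTR_5_PRIME sites (blue) with a genotype of depth 10 or more in every animal. The highest bar of both classes is that of 1 allele, at 28.3% and 22.7%.

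Among the genotypes of an animal that carried the alternative allele, 61.5% ± 4.22 were heterozygous at START_GAINED sites and 64.1% ± 3.32 at UTR_5_PRIME sites (SD, n = 9, depth 10 or more). The difference of -2.59 percentage points had an adjusted p of 0.169 in the exact sign-flip permutation test and was negative in 6 of 9 animals. With genotypes of any depth it was -6.99 percentage points (adjusted p = 0.00547, exact sign-flip). Where both tissues of an animal had a depth of 20 or more, their genotypes were identical in 98.9% of 358 START_GAINED pairs (97.2 to 99.7) and in 99.7% of 14457 UTR_5_PRIME pairs (99.6 to 99.8). START_GAINED pairs differed at the gene6491 site in 6-month animals 1 and 3 and 18-month animal 1. They also differed at chr7:40307693 in gene9183 in 30-month animal 1, and no other START_GAINED pair differed.

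START_GAINED sites were read less deeply. Mean depth per site, with sites without a call counted as 0, was 2.96 to 13.5 reads at START_GAINED sites and 5.55 to 22.6 reads at UTR_5_PRIME sites over the 18 libraries. On the log2 scale the animals averaged 3.18 ± 0.316 at START_GAINED sites and 4.09 ± 0.295 at UTR_5_PRIME sites (SD, n = 9). The ranges of the animals overlapped, 2.46 to 3.6 at START_GAINED sites and 3.37 to 4.40 at UTR_5_PRIME sites, but START_GAINED was lower within each of the 9 animals. The difference was -0.91, a ratio of 0.534, with an adjusted p of 0.00684 in the exact sign-flip permutation test. It was smaller, -0.52, for the median depth over called sites and -0.39 at sites called in all 18 libraries, both lower in START_GAINED with an adjusted p of 0.00684 (exact sign-flip). Because the animals share most of their sites, the p-values for depth speak for the animals and not for other sites. The genes of START_GAINED sites also had lower levels, with a median deposited FPKM of 4.66 over 332 gene models against 6.35 over the 4077 gene models of UTR_5_PRIME sites and 3.04 over all 21377 annotated models. Per site, the median of log2 depth per FPKM was -0.01 at START_GAINED sites and 0.60 at UTR_5_PRIME sites. In the 185 gene models that hold both classes, the depth difference was -0.21 on the log2 scale (adjusted p = 0.00911, exact sign-flip), an alternative added after the data were seen.

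The depths themselves have a break that bears on both classes. Genotypes called as reference numbered 6 at 19 reads and 77 at 20 reads in START_GAINED sites, and 179 at 19 reads and 3309 at 20 reads in UTR_5_PRIME sites. Heterozygous calls showed no such step, with 13 and 17 calls at START_GAINED sites and 402 and 429 at UTR_5_PRIME sites.

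Allele balance, the share of reads with the alternative base at a heterozygous call, was measured at 282 calls of depth 20 or more at 83 START_GAINED sites and at 11449 calls at 2795 UTR_5_PRIME sites. It averaged 0.446 ± 0.0383 at START_GAINED sites and 0.475 ± 0.00545 at UTR_5_PRIME sites (SD, n = 9 animals). START_GAINED values ran from 0.400 to 0.515 with a median of 0.434, and UTR_5_PRIME values from 0.462 to 0.479 with a median of 0.476. START_GAINED was lower in 7 of 9 animals, and the difference of -0.0287 did not pass the test (p = 0.0859, adjusted p = 0.120, exact sign-flip permutation test). The call depended on the setting: the difference passed at a depth of 50 or more (-0.0496, adjusted p = 0.0109, exact sign-flip) and with reads summed over calls (-0.0381, adjusted p = 0.00547, exact sign-flip). Both settings give deep sites more weight. Deep sites include that of gene6491 (mean depth 79.8 reads, mean fraction 0.133) and that of gene16202 (243.7 reads, 0.486). Their part in these passes was not tested. The highest START_GAINED value was that of the 18-month animal whose pituitary library had 3 such calls, and without that library the difference was -0.0323 (adjusted p = 0.0328, exact sign-flip).

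**Figure D2:**
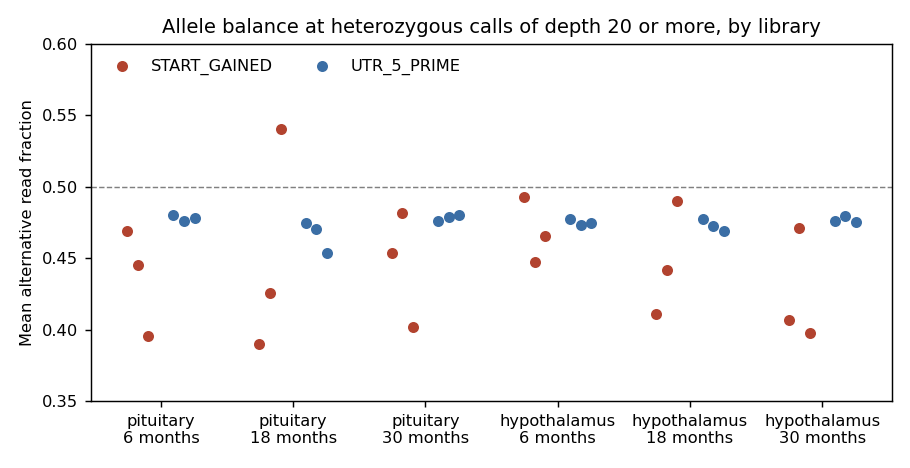
Mean alternative read fraction at heterozygous calls of depth 20 or more (y axis, 0.35 to 0.6) in each library, by tissue and age (x axis), for START_GAINED (red) and UTR_5_PRIME (blue) sites; the dashed line is 0.5. UTR_5_PRIME points lie between 0.454 and 0.481, while START_GAINED points spread from 0.390 to 0.540.

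START_GAINED balance was lowest on average at a single kind of change, where most calls with a fraction under 0.2 came from 3 sites in gene6491 and gene9183. At the START_GAINED sites where A became G on the coding strand, 58 calls at 9 sites averaged a fraction of 0.313. Of these calls, 23 (39.7%, 27.05 to 53.4) had a fraction under 0.2, all from those 3 sites. The A-to-G site of gene23261 averaged 0.467 over 8 calls, so low values were not shared by all sites with this change. At UTR_5_PRIME sites with the same change, 1133 calls averaged 0.475 and 33 of them (2.91%, 2.01 to 4.07) were under 0.2. UTR_5_PRIME sites with the change T to C on the coding strand gave similar values, an average of 0.474 over 1216 calls, with 22 (1.81%, 1.14 to 2.73) under 0.2. These intervals count calls, which repeat the same sites over libraries, so they do not measure the spread between sites. C-to-T or G-to-A calls averaged 0.476 at START_GAINED sites and 0.481 at UTR_5_PRIME sites. Low fractions occurred there too, with 4 of 167 START_GAINED calls (2.40%), at 3 sites, and 33 of 4092 UTR_5_PRIME calls (0.806%) under 0.2. Of those START_GAINED sites, that of gene13436 averaged 0.181 over 3 calls and that of gene13693 averaged 0.191 over 2 calls. Transversions averaged 0.491 at START_GAINED sites and 0.474 at UTR_5_PRIME sites. Without A-to-G and T-to-C sites, a choice made after the data were seen, the class difference over animals was 0.00416, against -0.160 with those sites alone (adjusted p = 0.0137, exact sign-flip). The gene6491 site was heterozygous in all 9 animals, so that p speaks for the animals and not for other sites. Leaving out all sites of gene6491 and gene9183, which were picked for their low fractions, gave a difference of 0.00369. Since what was left out was chosen by the values compared, both differences are descriptions without a test.

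Single calls were also set against a balance of 0.5 with an exact binomial test, adjusted over all heterozygous calls of depth 20 or more. Over all SNP sites, 23574 of 432306 calls (5.45%) passed an adjusted p of 0.05, 4.38% with the alternative allele lower and 1.07% with it higher. At START_GAINED sites 34 of 282 calls passed (12.1%, 8.50 to 16.4), 30 lower and 4 higher, and at UTR_5_PRIME sites 618 of 11449 (5.40%, 4.99 to 5.83), of which 152 were higher and the rest lower. The 34 START_GAINED calls came from 12 sites, and 23 of them from 3 A-to-G sites in gene6491 and gene9183. Without A-to-G and T-to-C sites the share was 4.02% at START_GAINED sites, 4.21% at UTR_5_PRIME sites and 3.93% over the table. Mean depth at the calls tested was 53.6 reads at START_GAINED sites and 73.3 at UTR_5_PRIME sites, and a deeper call passes more easily.

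At 17 START_GAINED sites and 799 UTR_5_PRIME sites, a heterozygous call of that depth was present in at least 6 libraries. Every such fraction lay below 0.5 at 3 START_GAINED and 68 UTR_5_PRIME sites, above 0.5 at 1 START_GAINED and 21 UTR_5_PRIME sites, and on both sides at 13 START_GAINED and 710 UTR_5_PRIME sites.

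The START_GAINED site in gene6491, at chr5:76186535 (T to C as listed, A to G on the coding strand), combined a low fraction with a small spread. It was heterozygous in 14 libraries from all 9 animals, with fractions from 0.0909 to 0.196, a median of 0.127 and a mean of 0.133 ± 0.0275 (SD). Of 1319 reads there, 171 carried the alternative base, and all 14 calls passed the test of balance. The other 4 libraries were called reference, with 0 alternative reads at depths of 5, 20, 37 and 56. In each of the 4 animals concerned, the other tissue was called heterozygous. No library was homozygous for the alternative allele. The fractions of heterozygous libraries overlapped between pituitary, 0.0909 to 0.162, and hypothalamus, 0.102 to 0.196.

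In gene9183 a pair of START_GAINED sites lay 11 bases apart, both A to G. At chr7:40307693, 7 libraries from 5 animals were heterozygous at depth 20 or more with fractions from 0.0800 to 0.261, a median of 0.129 and a mean of 0.132 ± 0.0626 (SD), and 6 of the 7 passed. Several libraries called reference there also held alternative reads, such as 3 of 35 in pituitary 6 months replicate 3. At chr7:40307704, named here because it shares the gene and chosen after its values were seen, 10 libraries from 7 animals had fractions from 0.162 to 0.368 with a mean of 0.276 ± 0.0868 (SD), and 3 passed. Both sites lay below 0.5 in each of these libraries, pituitary and hypothalamus. Sites this close can share reads, so they are not independent. The cause of the low A-to-G fractions was not tested.

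In gene28996 the site at chr26:45659782 (C to T as listed, G to A on the coding strand) was, among the 17 START_GAINED sites with at least 6 such libraries, the site with every fraction above 0.5. Another listed 5′ site lay 3 bases away, so these sites can share reads. The 2 libraries of the 18-month animal 3 had 0.522 in pituitary and 0.509 in hypothalamus. The 30-month animals 1, 2 and 3 had 0.621, 0.641 and 0.829 in pituitary and 0.550, 0.818 and 0.727 in hypothalamus. The other 10 libraries, all at 6 or 18 months, held 0 alternative reads at depths of 8 to 29. The mean was 0.652 ± 0.127 (SD), 187 of 286 reads carried the alternative base, and 2 of the 8 calls passed. Each animal's tissues were called alike, and with 4 carriers no comparison of ages in the fraction was made.

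The deepest START_GAINED site, in gene16202 at chr13:65841766 (G to T), had a mean depth of 243.7 reads and was balanced. Its 8 heterozygous libraries, from 4 animals, had fractions from 0.448 to 0.525 with a mean of 0.486 ± 0.0262 (SD), and none passed. Another 8 libraries were homozygous for the alternative base and 2, both from 30-month animal 2, were reference. Those 2 libraries had depths of 42 and 56, against 233 to 349 in the others except pituitary 18 months replicate 3, which had 8. The FPKM of the gene in them was 40.2 in pituitary and 34.5 in hypothalamus, within the range of 28.3 to 118.6 over all libraries.

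**Figure D3:**
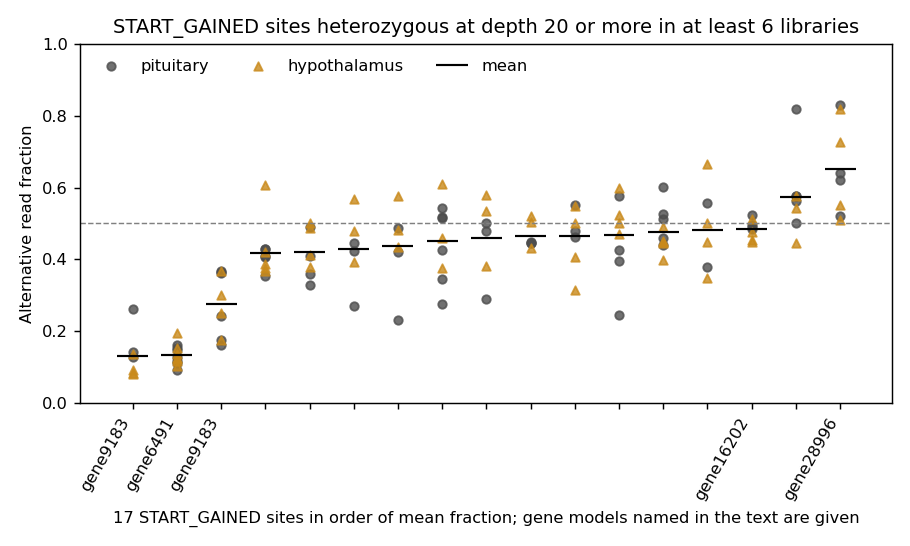
Alternative read fraction (y axis) in each heterozygous library of depth 20 or more for the 17 START_GAINED sites with at least 6 such libraries (x axis, by mean fraction), with pituitary as circles, hypothalamus as triangles, the mean as a bar and 0.5 as a dashed line. The 3 sites of gene9183 and gene6491 lie lowest, at means of 0.132, 0.133 and 0.276.

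Among UTR_5_PRIME sites the lowest mean fraction was that of gene25294 at chr22:12728242 (T to G), where 7 libraries had 0.0804 to 0.146 with a mean of 0.116 ± 0.0251 (SD) and all 7 passed. Depth there was 79 to 158 reads in the 7 heterozygous libraries and 18 to 31 reads in the 4 libraries homozygous for the alternative base. Of the 7 reference libraries, pituitary 6 months replicate 2 had 132 reads, 9 of them alternative, and the rest had 20 to 27 reads. The cause of these depths was not tested. At gene30769, chr29:50187273 (A to G as listed, T to C on the coding strand), 6 libraries averaged 0.140 ± 0.0317. The highest means were 0.795 ± 0.0793 over 10 libraries of gene9592 at chr7:54359945 (A to G) and 0.771 ± 0.0889 over 8 libraries of gene27813 at chr25:7563394 (C to T). The first of these was heterozygous in 17 libraries and homozygous for the alternative base in 1.

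Set against sites elsewhere in the mRNA, both 5′ classes together were read less deeply, and no difference in allele frequency passed the test. Log2 depth averaged 4.06 ± 0.296 at 5′ sites, 5.18 ± 0.0503 at the 38698 sites annotated UTR_3_PRIME and 5.11 ± 0.215 at the 31439 sites annotated SYNONYMOUS_CODING (SD, n = 9). The differences of -1.12 and -1.06 were negative in 9 of 9 animals, with an adjusted p of 0.0156 each in the exact sign-flip permutation test. Here too the animals share most of their sites, so the sign-flip tests against these classes speak for the animals and not for other sites. Allele frequency was 0.343 ± 0.0203 at 5′ sites, 0.337 ± 0.0138 at UTR_3_PRIME sites and 0.344 ± 0.0165 at SYNONYMOUS_CODING sites, and neither difference passed (adjusted p = 0.363 and 0.848, exact sign-flip). Without hypothalamus 18 months replicate 3 the differences were -0.0142 from UTR_3_PRIME and -0.0169 from SYNONYMOUS_CODING (adjusted p = 0.0250 and 0.0156, exact sign-flip), and without pituitary 30 months replicate 1 that from UTR_3_PRIME was 0.00917 (adjusted p = 0.0391, exact sign-flip). The heterozygous share was 64.1% at 5′ sites, 65.0% at UTR_3_PRIME sites and 63.9% at SYNONYMOUS_CODING sites, and again neither difference passed (adjusted p = 0.250 and 0.848, exact sign-flip). Allele balance was 0.474 ± 0.00502 at 5′ sites and 0.480 ± 0.00181 at SYNONYMOUS_CODING sites, lower by a small amount in 8 of 9 animals (difference -0.00606, adjusted p = 0.0208, exact sign-flip). At UTR_3_PRIME sites it was 0.474 ± 0.00123, and the difference did not pass (adjusted p = 0.848, exact sign-flip). Calls past the test of balance made up 5.09% at UTR_3_PRIME sites and 3.16% at SYNONYMOUS_CODING sites.

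No difference between pituitary and hypothalamus passed a test at the 5′ sites. The share of SNP-site reads at START_GAINED sites was 0.0548% ± 0.00926 in pituitary and 0.0593% ± 0.00516 in hypothalamus (SD, n = 9 each), and at UTR_5_PRIME sites 2.15% ± 0.367 in pituitary and 2.26% ± 0.212 in hypothalamus. Allele balance at START_GAINED sites was 0.445 ± 0.0483 in pituitary and 0.447 ± 0.0359 in hypothalamus, and at UTR_5_PRIME sites 0.474 ± 0.00828 in pituitary and 0.475 ± 0.00307 in hypothalamus. None of these 4 differences passed the exact permutation test over libraries (adjusted p = 0.909 to 0.914). Without pituitary 18 months replicate 3, the UTR_5_PRIME read share differed by 0.00379 percentage points in place of -0.111. The class difference itself also did not differ between tissues past the test. For allele balance it was -0.0295 in pituitary and -0.0279 in hypothalamus (p = 0.926, exact sign-flip), and for log2 depth -0.93 in pituitary and -0.88 in hypothalamus (p = 0.242, exact sign-flip).

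Between ages, 3 cows against 3 cannot reach an exact permutation p below 0.1. In hypothalamus the share of reads at 5′ sites was 2.54% ± 0.114 in 6-month cows, 2.24% ± 0.136 in 18-month cows and 2.18% ± 0.204 in 30-month cows (SD, n = 3 each). The 6-month libraries ran from 2.44% to 2.67% and lay above every 18-month library (2.10% to 2.36%) and every 30-month library (1.97% to 2.37%). Both comparisons, which share the 6-month libraries, had the smallest possible p of 0.1 and an adjusted p of 0.3 (exact permutation test). The share of reads at UTR_3_PRIME sites in the same libraries was 24.1% ± 2.15 in 6-month, 25.7% ± 4.10 in 18-month and 24.1% ± 1.63 in 30-month cows, and its part in the difference was not tested. In pituitary the 5′ share was 2.33% ± 0.137 in 6-month cows, 2.01% ± 0.650 in 18-month cows and 2.28% ± 0.173 in 30-month cows, and the ages overlapped. The 18-month mean rested on replicate 3, and without it the 18-month minus 6-month difference was 0.0495 percentage points in place of -0.323.

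**Figure D4:**
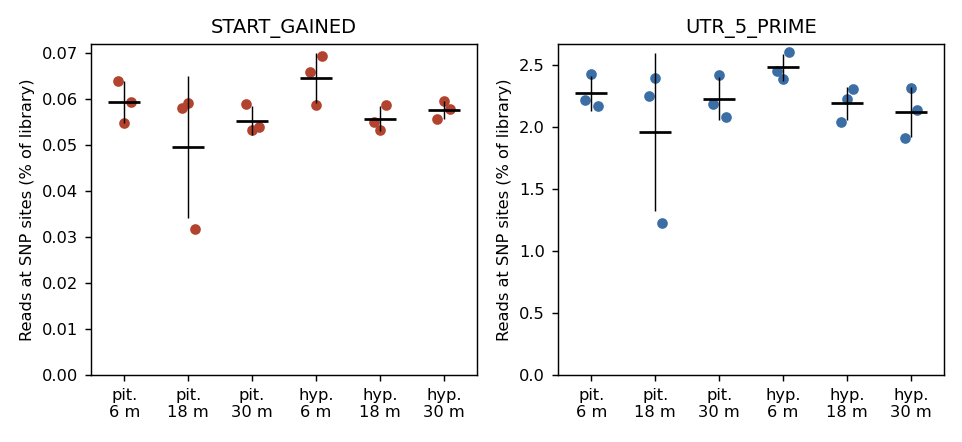
Share of a library's SNP-site reads (percent, y axis) at START_GAINED sites (left) and UTR_5_PRIME sites (right), by tissue (pit., pituitary; hyp., hypothalamus) and age in months (m), with a point per library, the mean as a bar and the SD as a line (n = 3). Hypothalamus at 6 months has the highest mean in both panels, and the low point at 18 months is pituitary replicate 3.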

How the data were processed

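Poly(A) RNA of 18 libraries (2 tissues of 9 cows) was analysed from 2 deposited tables. Per the file headers, the deposited SNP table gives for each library a genotype, the depth as a count of reads and the read count of each allele, without normalization. The authors' gene table holds FPKM (fragments scaled by gene model length and library size). The submitters' processing notes name GATK, HISAT2, StringTie and DESeq without roles; the genome build and the tool that annotated effects are not given in the sources used here, and chromosome positions are printed as the table gives them. Members and lists were chosen with earlier results of these data known.

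Libraries were joined into animals by genotype identity, which also paired the tissues; replicate numbers follow the order of the samples. Animals were compared by two-sided exact sign-flip permutation tests over 512 sign patterns, tissues by exact permutation over 48620 splits of 9 and 9 libraries, and ages over 20 splits of 3 and 3. Benjamini-Hochberg adjustment covered the 7 class comparisons, the 8 against other sites, the 4 between tissues and the 6 between ages. Allele frequency took the deeper library of an animal at depth 10 or more. Heterozygous calls of depth 20 or more were tested against 0.5 by exact binomial tests adjusted over the whole table. Intervals are exact (Clopper-Pearson, 95%) and, like the limit of 3 counts for a count of 0, cover counting error only; reads are not independent molecules. The sites printed were, among those heterozygous in at least 6 libraries and on the same side of 0.5 in each, the 2 lowest and 2 highest in mean fraction per class (a single START_GAINED site qualified as high), the deepest START_GAINED site, that of smallest SD in 5 or more animals, and the gene models with most START_GAINED sites. Alternatives changed depth limits, sites, tissues, libraries, weighting and the threshold, and each library was left out in turn. Python 3.11.15, numpy 2.4.6, scipy 1.17.1 and pandas 2.3.3 were used, and the tests were tested on simulated data. Insertions, deletions and gene counts were not used here.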

Additional observations from a re-analysis of the deposited data

Results flagged for a closer look

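Of 22 groups of values examined, 6 held a value whose gap to its nearest neighbour was large for the range of the group; chance alone gives about 1 such group in 20. Of these, 5 concern pituitary 18 months replicate 3 or its animal, and these values are not independent. In that library the share of reads was 0.0318% at START_GAINED sites, with the next lowest pituitary library at 0.0532%, and 1.23% at UTR_5_PRIME sites, with the next lowest at 2.08%. Its UTR_5_PRIME allele balance was 0.454, with the next lowest at 0.470. Its animal, 18 months animal 3, had the lowest log2 depth at UTR_5_PRIME sites, 3.37 with the next at 3.99, and the lowest allele balance there, 0.462 with the next at 0.472. The sixth value was the UTR_5_PRIME allele frequency of 6 months animal 2, 0.392, with the next highest animal at 0.355.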

How the results depend on the processing

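Of 531 recomputed values, 476 kept their direction and side of the threshold, among them all those of the substitution shares and of depth by class, whose size ranged from -1.10 to -0.21 (adjusted p = 0.00547 to 0.00911, exact sign-flip). With libraries paired by animal as a replicate block, no tissue call changed; the START_GAINED read share differed by -0.00455 percentage points (p = 0.188, exact sign-flip).

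The class difference in allele frequency was 0.0278 at depth 20 or more, 0.0258 at sites called in at least 5 animals (100 START_GAINED sites), -0.0688 in pituitary and -0.0129 in hypothalamus alone, and -0.0962 to 0.0268 as each library was left out. The lowest, without hypothalamus 18 months replicate 3, rested on 14 START_GAINED sites. The heterozygous share difference was -6.99 at any depth. That in allele balance passed the test at depth 50 or more (-0.0496), with reads summed (-0.0381) and at A-to-G and T-to-C sites alone (-0.160); it was 0.00416 without those sites, 0.00369 without gene6491 and gene9183, 0.0103 in genes holding both classes, and -0.0328 to -0.0246 with a library left out. Imbalance calls at START_GAINED sites, UTR_5_PRIME sites and over the whole SNP table were 8.51%, 3.07% and 3.05% at an adjusted p of 0.01, 10.6%, 4.50% and 4.45% against the library mean, 15.5%, 8.30% and 7.60% at depth 50 or more, 10.9%, 4.53% and 4.07% at isolated sites, and 4.02%, 4.21% and 3.93% without A-to-G and T-to-C sites. The START_GAINED share at depth 50 or more includes repeated calls at the gene6491 site, whose 14 calls all passed at the main setting.

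Against UTR_3_PRIME, the 5′ allele frequency difference was -0.00312 at depth 20 or more, and allele balance -0.000523 at isolated sites. With a library left out, allele frequency differed by -0.0142 to 0.00917 and balance by -0.000254 to 0.00128 from UTR_3_PRIME, and allele frequency by -0.0169 to 0.00255 and heterozygous share by -0.0248 to 0.239 from SYNONYMOUS_CODING. Between tissues the ranges were -0.0141 to 0.00463 (START_GAINED balance), -0.155 to 0.00379 (UTR_5_PRIME read share) and -0.00144 to 0.00187 (UTR_5_PRIME balance). Between ages the 5′ share in pituitary ranged from -0.546 to 0.0495 (18 minus 6 months), -0.0964 to 0.499 (30 minus 18) and -0.141 to 0.0306 (30 minus 6), and in hypothalamus from -0.166 to 0.0380 (30 minus 18). The causes were not tested. Depth limits the START_GAINED comparisons: 35 of its sites reached depth 20 in all 9 animals.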

Other observations

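In pituitary 18 months replicate 3, site depth and gene level went apart in gene9183. Its FPKM there was 168.7, the highest of the 18 libraries, where the median was 32.7, while depth at the 5′ site at chr7:40307693 was 2 reads, the lowest. At chr22:12728242 in gene25294, pituitary 6 months replicate 2, called reference at 132 reads, held an alternative fraction of 0.0682, close to the 0.0804 of the lowest heterozygous library. At chr29:50187273 in gene30769, pituitary 18 months replicate 3 had the highest depth of the 18 libraries, 103 reads, with a fraction of 0.117. The FPKM of gene30769 was also highest in that library, 51.1 against a median of 7.52.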
